A study of Homo sapiens with 6 samples.

Results

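Inflammatory chemokines are small secreted proteins that draw leukocytes along a gradient. The 10 genes described here are the CXC chemokines CXCL1, CXCL2, CXCL3, CXCL5, CXCL6, CXCL8, CXCL10 and CXCL16 and the CC chemokines CCL2 and CCL20. They were found by symbol among the 59008 genes of the deposited table, and all 10 were present. The genes were chosen by symbol and on their TPM values, since the levels in these 6 libraries were known, so the differences between libraries given below describe these libraries and are not tests. RNA sequencing covered the cell lines Hey and SKOV3, both established from human ovarian cancers, each as untreated parental cells, polyploid giant cancer cells (PGCCs) and daughter cells, with 1 library per condition. PGCCs were collected after 500 nM paclitaxel, a drug that blocks mitosis by stabilizing microtubules, for 16 h and 3 days of recovery. Daughter cells, which grow out of PGCC cultures, had the same exposure and 30 days of recovery, and the title of each daughter library gives 1 clone. For the SKOV3 PGCC library the title gives day 7, whereas its treatment label and the study's methods give day 3.

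CXC chemokines with the residues Glu-Leu-Arg before the first cysteine pair, here CXCL1, CXCL2, CXCL3, CXCL5, CXCL6 and CXCL8, attract neutrophils through the receptors CXCR1 and CXCR2 and also act on blood vessels. CXCL10 lacks these residues and attracts activated T cells through CXCR3, CXCL16 is made as a membrane-bound protein that binds CXCR6, CCL2 attracts monocytes through CCR2, and CCL20 attracts CCR6-bearing lymphocytes and dendritic cells. Many of these genes are transcribed in response to IL-1 and TNF through NF-κB, a family of factors that binds κB motifs in promoters, and they belong to the proteins that senescent cells secrete. The comparison of PGCCs with parental cells asks what paclitaxel-induced giant cells express, and those with daughter cells ask how far the levels differ after recovery.

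The CXC genes lie together on chromosome 4 of GRCh38 (GENCODE 44). CXCL8 spans chr4:73740519-73743716, followed by CXCL6, CXCL1, CXCL5, CXCL3 and CXCL2, the last at chr4:74097040-74099196, and CXCL10 lies farther along at chr4:76021118-76023497. CXCL16 (chr17:4733533-4739928) and CCL2 (chr17:34255274-34257208) are on chromosome 17, and CCL20 (chr2:227805739-227817564) is on chromosome 2. For 8 of the 10 genes the RefSeq promoter table for GRCh38.p14 held a sequence, and CXCL16 and CCL2 had no entry. The stretches below run from 150 to 41 bases before the RefSeq transcription start on the gene's strand. CXCL8 and CCL20 are shown as the genes with the largest fold changes in Hey PGCCs, CXCL1 and CXCL2 as close copies of each other, and CXCL5 because it carries the same κB-like letters at a TPM below 1. Capitals mark matches to GGNNNTTCC on either strand.
CXCL8 promoter, chr4:73740419-73740528, plus strand: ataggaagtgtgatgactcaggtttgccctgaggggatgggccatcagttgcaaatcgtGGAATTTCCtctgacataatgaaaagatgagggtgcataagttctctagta
CXCL1 promoter, chr4:73869243-73869352, plus strand: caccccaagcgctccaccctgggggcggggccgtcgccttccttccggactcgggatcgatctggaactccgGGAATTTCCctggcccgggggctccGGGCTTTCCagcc
CXCL2 promoter, chr4:74099236-74099345, minus strand: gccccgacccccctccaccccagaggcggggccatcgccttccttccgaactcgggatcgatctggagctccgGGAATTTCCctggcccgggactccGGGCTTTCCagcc
CXCL5 promoter, chr4:73998718-73998827, minus strand: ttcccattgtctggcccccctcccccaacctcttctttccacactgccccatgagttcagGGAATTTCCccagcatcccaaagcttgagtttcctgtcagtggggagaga
CCL20 promoter, chr2:227813692-227813801, plus strand: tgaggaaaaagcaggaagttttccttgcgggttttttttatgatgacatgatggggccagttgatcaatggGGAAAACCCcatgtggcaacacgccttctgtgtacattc

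The motif GGNNNTTCC, a general form of the κB motif, was searched on both strands over the 250 bases before the start. It was found in the promoters of all 8 genes, against 17.1% of the 35116 promoters of the table. These 8 are not independent, since CXCL1, CXCL2 and CXCL3 are close copies of each other and so are CXCL5 and CXCL6. The form GGAATTTCC, which matches both strands at 1 place, stood 91 bases before the start of CXCL8, 78 bases before CXCL1 and CXCL3, 77 before CXCL2, 90 before CXCL5 and 89 before CXCL6. CXCL1, CXCL2 and CXCL3 each held a further match, GGGCTTTCC, 53 bases before the start. In CCL20 the match was the reverse complement GGAAAACCC at 79 bases, and CXCL10 held 3 matches at 176, 122 and 110 bases. TGANTCA, the core of the AP-1 motif and found in 6.57% of promoters, occurred in CXCL8 alone of the 8, at 137 bases. GAAANNGAA, part of the interferon-stimulated response element and found in 6.88% of promoters, occurred in CXCL10, CXCL2 and CXCL3. TATAAA, found in 10.7%, occurred in CXCL8 at 31 bases and CCL20 at 29 bases. A match describes letters in the promoter, not binding of a factor in these cells.

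**Figure D1:**
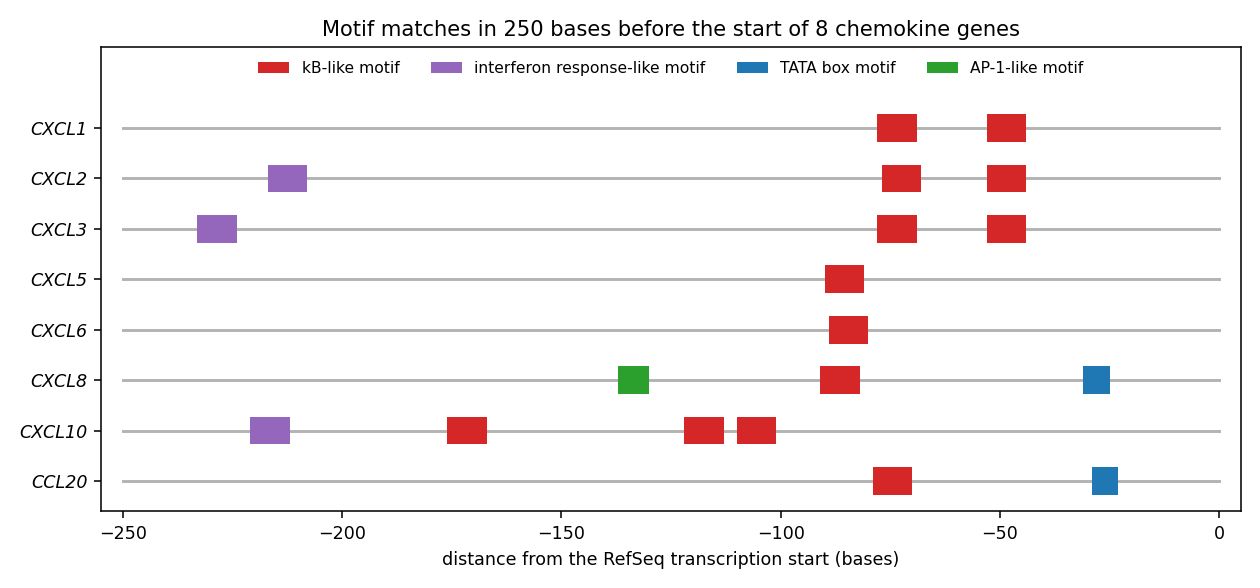
Motif matches in the 250 bases before the RefSeq start of 8 chemokine genes, with 1 line per gene and the distance from the start in bases on the horizontal axis. Boxes mark matches on either strand to GGNNNTTCC (kB-like), TGANTCA (AP-1-like), GAAANNGAA (interferon response-like) and TATAAA. Each of the 8 genes has at least 1 kB-like box, and CXCL10 has 3.

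Levels are given as TPM (transcripts per 1000000), a value scaled within each library and per transcript length, so that levels of different genes can be set side by side. TPM carries no read counts, so no counting error can be given, and without replicates no value has an SD. Differences are differences of log2(TPM + 1), and a gene was called higher or lower once this difference reached 1, which is 2-fold. This scale understates the change of genes near 0. No p-value was computed. Between 19920 and 25370 genes had a TPM above 0 in a library, and mitochondrial genes took between 2.64% and 14.8% of the TPM. None of 10 housekeeping genes was listed at 0 in any library. In a bulk sample, fewer cells expressing a gene and less RNA per cell cannot be told apart.

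CXCL8 (interleukin-8), a strong neutrophil attractant, was the most abundant of the 10 chemokine mRNAs in every library but that of Hey daughter cells, where CXCL1 was higher. In Hey it was at 149 TPM before treatment, 3488 TPM in PGCCs and 49.8 TPM in daughter cells. The SKOV3 levels were 191 TPM before treatment, 179.0 TPM in PGCCs and 663 TPM in daughter cells. The Hey PGCC library thus stood highest, the SKOV3 daughter library next, and the Hey daughter library lowest. By TPM, CXCL8 ranked 36 among all genes in Hey PGCCs, compared with 851 in Hey parental and 2762 in Hey daughter cells, and in SKOV3 it ranked 733, 725 and 174 in parental cells, PGCCs and daughter cells.

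CXCL1 (Gro-α), CXCL2 and CXCL3 are closely related neutrophil attractants that act mainly through CXCR2. CXCL1 was at 104.5, 705 and 65.3 TPM in Hey parental cells, PGCCs and daughter cells, and at 109.5, 121 and 198 TPM in SKOV3. CXCL2 was at 79.6, 183.5 and 15.7 TPM in Hey and at 57.7, 48.7 and 141 TPM in SKOV3. CXCL3 was at 17.6, 132 and 6.40 TPM in Hey and at 7.97, 8.87 and 15.4 TPM in SKOV3. For each of these genes Hey PGCCs had the highest level and Hey daughter cells the lowest, and SKOV3 daughter cells came second for CXCL1 and CXCL2 and Hey parental cells for CXCL3. The genes share sequence, which makes their separate values uncertain: of the 31-base stretches in their GENCODE transcripts, 13.1% for CXCL1, 23.5% for CXCL2 and 9.23% for CXCL3 also occur in another chemokine gene, so reads could be divided between copies. The summed level of the trio does not depend on that division among them and was 202, 1021 and 87.4 TPM in Hey and 175, 179 and 355 TPM in SKOV3. CXCL8 shared none of these stretches with another chemokine gene.

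The study's own RT-qPCR primers for CXCL1 and CXCL3 are given because they separate these copies. Each pair matched transcripts of its own gene alone in GENCODE 44, with a product of 94 bases for CXCL1 and of 199 bases for CXCL3, or 1127 bases in a longer CXCL3 transcript.
CXCL1 sense primer: agcctgcaacatgccagcca
CXCL1 antisense primer: tgtgcacatacattcccctgcct
CXCL3 sense primer: aatgtaaggtcccccggacccc
CXCL3 antisense primer: accaccctgcaggaagtgtcaa

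CXCL5 and CXCL6, the remaining neutrophil attractants, did not reach 1 TPM in any library. CXCL5 was at 0.824 TPM in Hey PGCCs and 0.0224 TPM in SKOV3 daughter cells and was listed at 0 in the other 4 libraries. CXCL6 was at 0.0314 TPM in Hey PGCCs and 0.158 TPM in SKOV3 daughter cells and was listed at 0 in the others. Both genes were therefore above 0 in the same 2 libraries in which CXCL8 was highest. These were also the 2 libraries with the most genes above 0, at 25370 in Hey PGCCs and 23893 in SKOV3 daughter cells. SKOV3 PGCCs came next, at 23449. Whether values this low follow the number of genes detected was not tested. CXCL10, a T-cell attractant and an interferon-induced gene, was at 0.561 TPM in Hey PGCCs, 0.0468 TPM in SKOV3 PGCCs and 0.635 TPM in SKOV3 daughter cells, and was listed at 0 in the remaining libraries.

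CXCL16 had another pattern. It was at 0.0352, 0.158 and 0.738 TPM in Hey parental cells, PGCCs and daughter cells, and at 7.11, 6.90 and 19.3 TPM in SKOV3. The SKOV3 libraries were all above the Hey libraries, and the daughter cells were highest within each line. CCL2 (MCP-1), the monocyte attractant, was at 591 TPM in SKOV3 daughter cells, where it ranked 189 among all genes. It was at 0.157 TPM in Hey PGCCs and was listed at 0 in the other 4 libraries, SKOV3 parental cells and PGCCs included. CCL20, the ligand of CCR6, was at 1.45, 49.8 and 3.53 TPM in Hey and at 12.0, 15.9 and 73.1 TPM in SKOV3. It was highest in SKOV3 daughter cells and second in Hey PGCCs. Without replicates, it cannot be judged which neighbours in any of these orders differ beyond the spread between cultures.

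**Figure D2:**
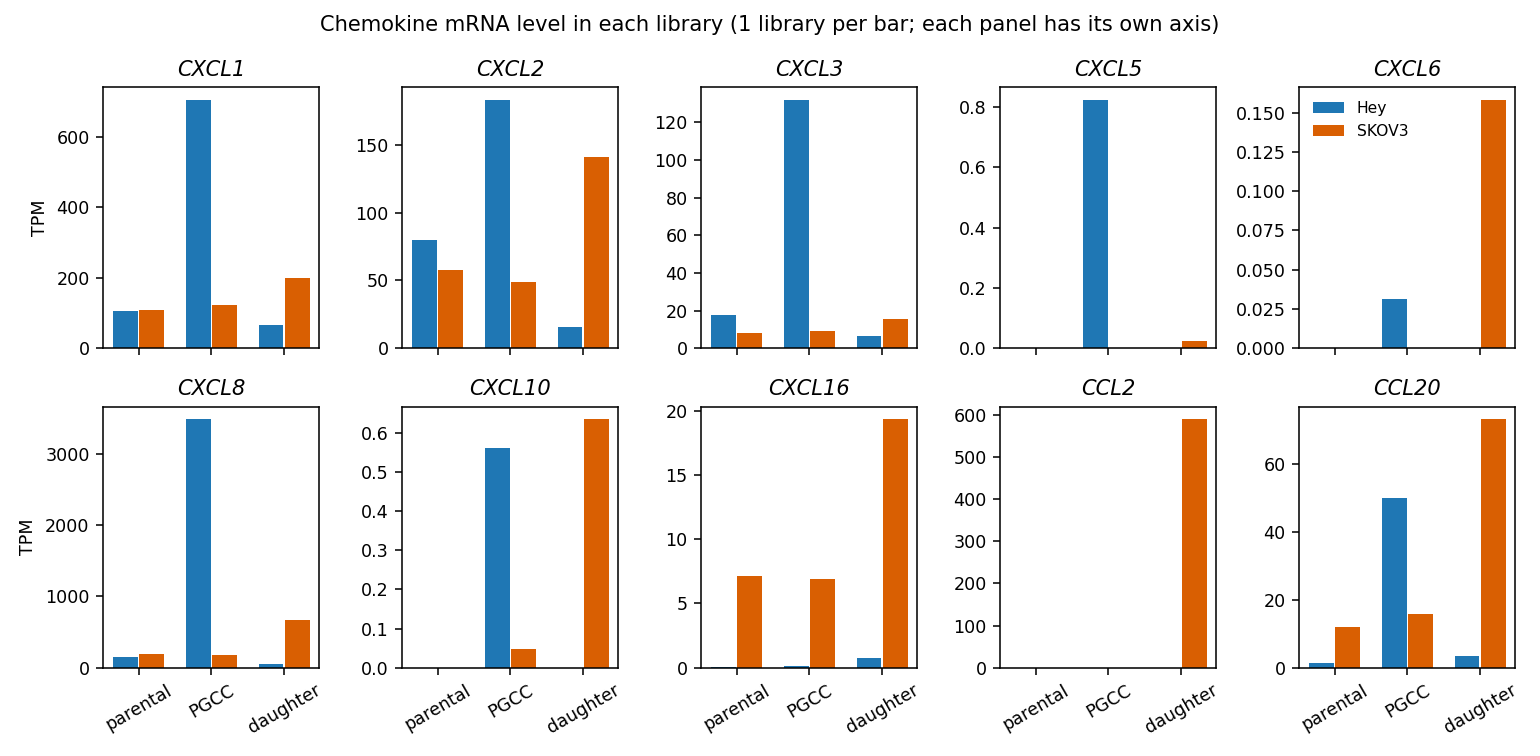
Level of each of the 10 chemokine genes in TPM (vertical axis, starting at 0 with its own scale in each panel) in the 3 states of Hey (blue) and SKOV3 (orange), with 1 library per bar. CXCL8, CXCL1, CXCL2 and CXCL3 are highest in Hey PGCCs, and CCL2 stands at 591 TPM in SKOV3 daughter cells with no visible bar elsewhere.

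The summed TPM of the 10 genes was 352, 4560 and 141.5 before treatment, in PGCCs and in daughter cells of the Hey line. The SKOV3 sums were 385, 381 and 1702. The sum was 13.0 times higher in PGCCs than in parental cells of Hey, and the corresponding ratio in SKOV3 was 0.989. CXCL8 made up 76.5% of the sum in Hey PGCCs, against 42.3% in Hey parental and 35.2% in Hey daughter cells, and 49.5%, 47.0% and 39.0% in SKOV3 parental cells, PGCCs and daughter cells. Without CXCL8 the sums were 203, 1072 and 91.7 TPM in Hey and 194, 202 and 1039 TPM in SKOV3, so the 2 highest libraries stayed those of Hey PGCCs and SKOV3 daughter cells. Their make-up was unlike: CCL2 took 34.7% of the sum in SKOV3 daughter cells and next to nothing in Hey PGCCs. The ratio of CXCL8 to CXCL1 was 1.42, 4.95 and 0.763 in Hey and 1.74, 1.47 and 3.35 in SKOV3.

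**Figure D3:**
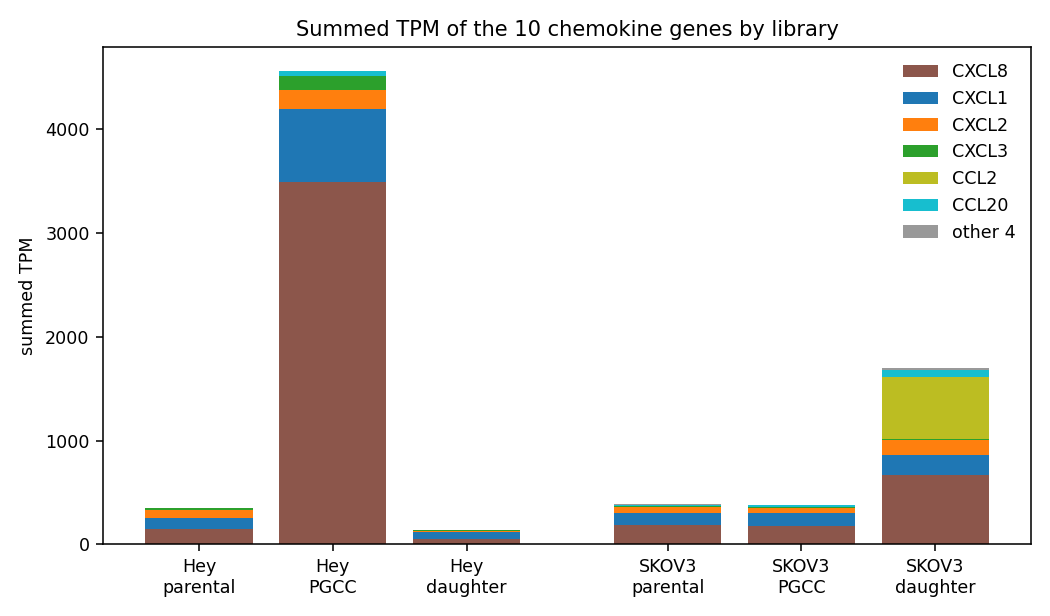
Summed TPM of the 10 chemokine genes (vertical axis, linear from 0) in each of the 6 libraries, stacked by gene, with CXCL5, CXCL6, CXCL10 and CXCL16 joined as the other 4. The Hey PGCC bar reaches 4560, most of it CXCL8, and the SKOV3 daughter bar reaches 1702 with a large CCL2 part.

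PGCCs were first compared with parental cells. In Hey, 5 of the 10 genes were higher in PGCCs and 0 were lower. Among all genes, 2.58% were called higher and 1.40% lower, and among the 14988 genes that averaged 1 TPM or more over the 6 libraries the shares were 7.67% and 5.22%. Because the genes were chosen with these libraries known, nothing is read from their count against such shares, here and in the comparisons that follow. CXCL8 was 23.4-fold higher (a difference of 4.54), CCL20 34.3-fold (4.37), CXCL3 7.51-fold (2.84), CXCL1 6.75-fold (2.74) and CXCL2 2.31-fold (1.20). The sum of CXCL1, CXCL2 and CXCL3 was 5.06-fold higher. CXCL5, CXCL10, CXCL16, CCL2 and CXCL6 had differences of 0.87, 0.64, 0.16, 0.21 and 0.04 and were not called. The median difference of the 10 genes was 1.03, beside 0.00 for the whole table.

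In SKOV3, 0 of the 10 genes were called in PGCCs against parental cells in either direction, where 2.88% of all genes were higher and 1.52% lower, and 9.94% and 4.96% of those that averaged 1 TPM or more. By size, the largest difference was that of CCL20, at 0.38, followed by CXCL2 at -0.24, CXCL1 at 0.15, CXCL3 at 0.14 and CXCL8 at -0.09. CXCL5, CXCL6 and CCL2 were listed at 0 in both libraries. Across the 13468 genes that averaged 1 TPM or more and had a known GC content, this comparison had a trend: its difference had a Spearman correlation of 0.72 with transcript GC content, compared with -0.05 in Hey. Genes are not independent replicates, so these values only describe the trend. CXCL8 and CCL20 have GC contents of 33.5% and 35.5%, and CXCL2 has 61.8%. With the trend removed, CCL20 was called higher, at 1.20, CXCL2 was called lower, at -1.12, and CXCL8 had a difference of 0.82, so the absence of calls in SKOV3 PGCCs rests on this choice.

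Daughter cells were then compared with PGCCs, a comparison that shares the PGCC libraries with the previous one. In Hey, 0 of the 10 genes were higher and 5 were lower in daughter cells, where over all genes 2.76% were higher and 2.65% lower, and 9.95% and 8.13% of those that averaged 1 TPM or more. CXCL8 was 70.0-fold lower in daughter cells (a difference of -6.10), and CXCL3, CCL20, CXCL2 and CXCL1 had differences of -4.17, -3.49, -3.47 and -3.41. CXCL16 had a difference of 0.59. In SKOV3, 5 genes were higher and 0 were lower, where over all genes 4.80% were higher and 2.79% lower, and 14.6% and 9.25% of those that averaged 1 TPM or more. The 5 were CCL2, with a difference of 9.21 from a library that listed it at 0, CCL20 (2.14), CXCL8 (1.88), CXCL2 (1.52) and CXCL16 (1.36). This comparison also had a trend with GC content, with a Spearman correlation of -0.45. All 5 calls held with the trend removed, while CXCL8 and CCL20 went down to 1.095 and 1.453 over the alternative settings. CXCL1 and CXCL3 had differences of 0.70 and 0.73.

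The last comparison within the lines, of daughter with parental cells, shares its libraries with both others. In Hey, 0 of the 10 genes were higher and 3 were lower, where 1.97% of all genes were higher and 1.08% lower, and 6.31% and 3.73% of those that averaged 1 TPM or more. CXCL2 was 5.09-fold lower in daughter cells (a difference of -2.28), CXCL8 had a difference of -1.56 and CXCL3 of -1.33. CXCL1, at -0.67, and CCL20, at 0.89, were not called. In SKOV3, 5 genes were higher and 0 were lower, where 5.10% of all genes were higher and 1.96% lower, and 15.1% and 6.34% of those that averaged 1 TPM or more. Here CCL2 had a difference of 9.21 from a library that listed it at 0, CCL20 of 2.51, CXCL8 of 1.79, CXCL16 of 1.33 and CXCL2 of 1.28. The call for CXCL2 ended, at 0.96, once the trend in GC content and length was taken out. The median difference of the 10 genes was 0.00 in Hey and 1.07 in SKOV3, and 0.00 over all genes in both. Leaving out CXCL5, CXCL6 and CXCL10, which have a mean TPM under 1, the other 7 had medians of -0.67 in Hey and 1.33 in SKOV3, of which CCL2 reached that mean through the SKOV3 daughter library alone. CXCL2 and CXCL8 were lower in daughter cells of Hey and higher in those of SKOV3, but with 1 library per condition the difference between the lines was not tested.

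**Figure D4:**
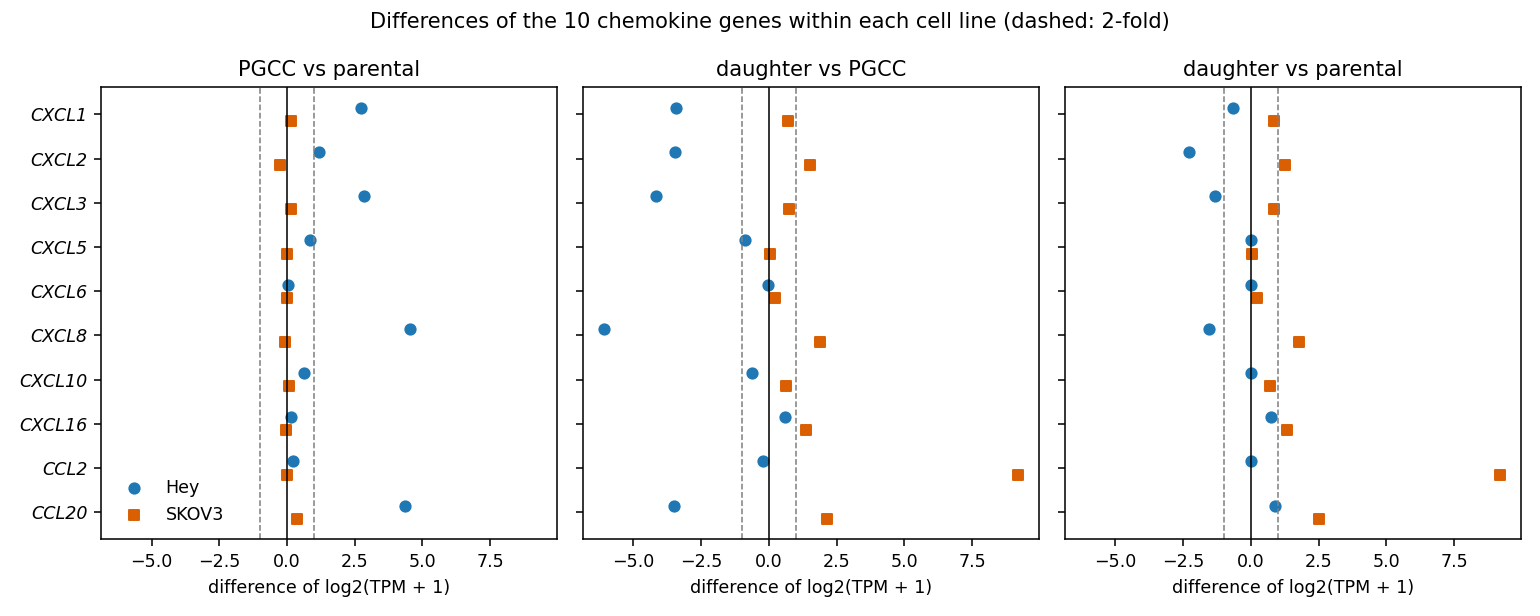
Difference of log2(TPM + 1) for each of the 10 chemokine genes in PGCCs against parental cells, daughter cells against PGCCs and daughter against parental cells, first minus second, in Hey (circles) and SKOV3 (squares). Dashed lines mark 2-fold. In the left panel the SKOV3 squares lie between -0.24 and 0.38, while the CXCL8 circle of Hey lies at 4.54.

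**Figure D5:**
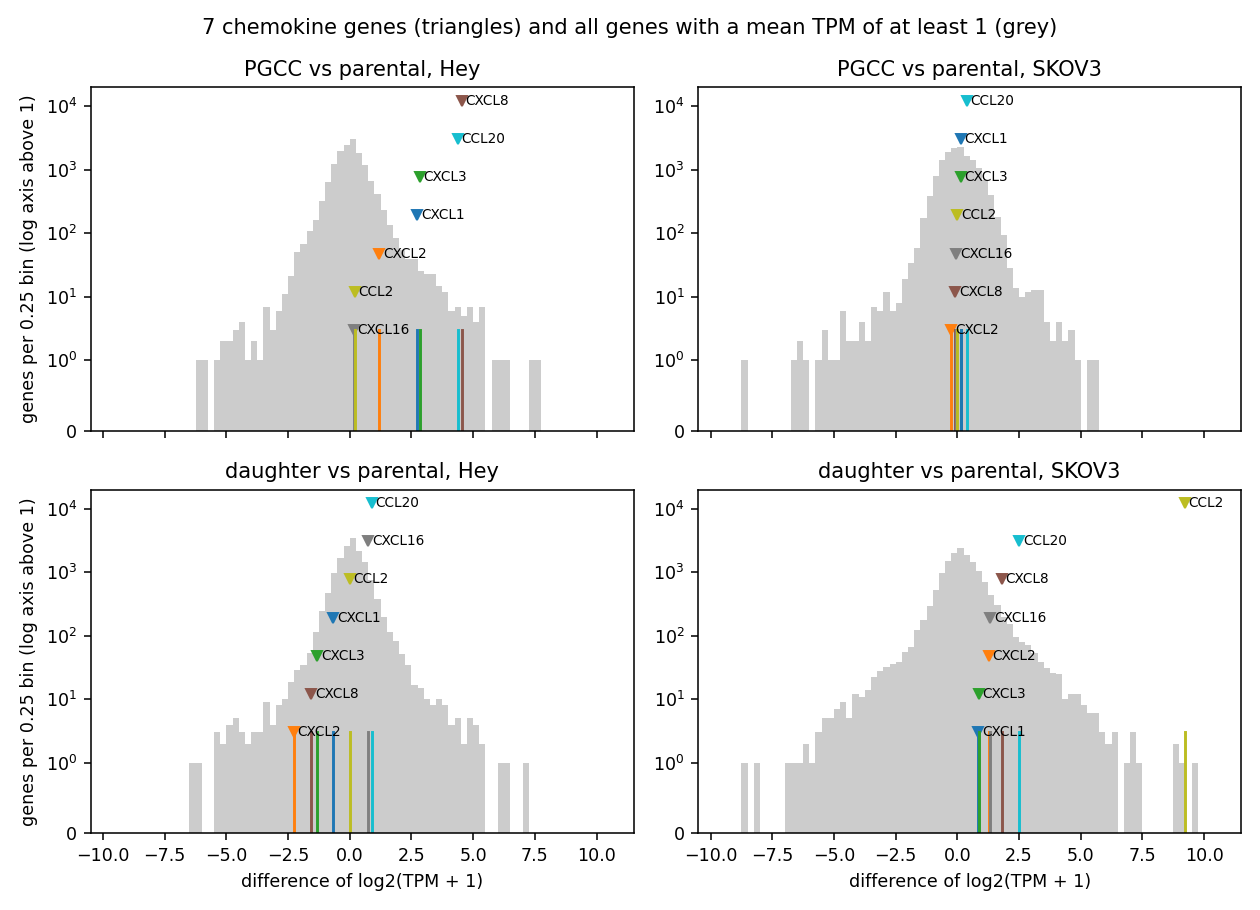
Distribution of the difference of log2(TPM + 1) over the 14988 genes that averaged 1 TPM or more (grey, number of genes per bin of 0.25 on an axis that is logarithmic above 1) with the 7 chemokine genes that pass this mean marked by triangles and lines. The height of a triangle carries no value. CXCL8 and CCL20 lie at 4.54 and 4.37 in Hey PGCCs, and CCL2 lies at 9.21 in SKOV3 daughter cells.

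Between the lines, which differed in many genes, SKOV3 was compared with Hey in each state. In parental cells, 2 of the 10 genes were higher in SKOV3 and 1 was lower, where 10.0% of all genes were called in either direction and 35.7% of those that averaged 1 TPM or more. CXCL16 and CCL20 were higher in SKOV3, by 2.97 and 2.41, and CXCL3 was lower, at -1.05, a call that ended at -0.96 when mitochondrial genes were left out. In PGCCs, 1 gene was higher and 5 were lower in SKOV3, where 12.3% of all genes were called and 43.0% of those that averaged 1 TPM or more. The titles give day 7 for the SKOV3 library and day 3 for that of Hey, so recovery time may also differ here. CXCL8, CXCL3, CXCL1, CXCL2 and CCL20 were lower, with differences of -4.28, -3.75, -2.53, -1.89 and -1.59, and CXCL16 was higher by 2.77. The comparison of PGCCs had a Spearman correlation of 0.36 with GC content, and 6 genes were still called with the trend removed. In daughter cells, 7 genes were higher in SKOV3 and 0 were lower, where 12.8% of all genes were called and 41.8% of those that averaged 1 TPM or more. Their differences were 9.21 for CCL2, 4.03 for CCL20, 3.71 for CXCL8, 3.55 for CXCL16, 3.09 for CXCL2, 1.59 for CXCL1 and 1.15 for CXCL3. The CXCL3 call ended under 3 settings, with values from 0.66 to 0.89, when the libraries were scaled by median ratios, quantile-normalized or freed of the GC and length trend. The median over the 14988 genes was itself 0.29, 0.35 and 0.38 higher in SKOV3 in these comparisons, and 0.01, 0.08 and 0.02 with median-ratio scaling.

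The receptors of these chemokines were near 0 in the cultures. CXCR1, CXCR3, CXCR6 and CCR2 were listed at 0 in all 6 libraries. CXCR2, which binds CXCL8 and CXCL1, was at 0.0473 TPM in Hey PGCCs and 0.0188 TPM in SKOV3 daughter cells, and CCR6 was at 0.0438 TPM in SKOV3 parental cells, both being listed at 0 elsewhere. Of 23 receptor genes, CXCR4, the receptor of CXCL12, was called in PGCCs against parental cells of either line: it was at 8.49, 25.2 and 5.10 TPM in Hey parental cells, PGCCs and daughter cells, and at 1.67, 0.307 and 0.159 TPM in SKOV3, where the PGCC value was called lower. Over all genes 2.58% were higher in Hey PGCCs and 1.52% lower in SKOV3 PGCCs. The shares were 7.67% and 4.96% among the 14988 genes that averaged 1 TPM or more. The SKOV3 comparison carries the GC trend, and CXCR4, with a GC content of 45.8%, had a difference of -1.03 in it. Most other chemokine genes stayed near 0 as well. Of 37 on the list 36 were matched in the table, and their summed level was between 0.158 and 14.7 TPM. CCL3, a monocyte and T-cell attractant, was at 5.85 TPM in Hey PGCCs and listed at 0 elsewhere. CCL26, an eosinophil attractant, was at 1.05 TPM in Hey PGCCs and at 4.38, 3.12 and 5.80 TPM in SKOV3, and was listed at 0 in the other Hey libraries. CCL27, a skin-homing T-cell attractant, was lower in SKOV3 PGCCs than in parental cells, at 0.467 against 2.13 TPM, in the comparison with the GC trend.

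Among 15 genes that induce, form or restrain NF-κB, 5 were higher and 0 lower in Hey PGCCs than in parental cells, and 3 were higher and 0 lower in SKOV3. The shares called higher among the 14988 genes were 7.67% in Hey and 9.94% in SKOV3. In Hey these were IL1A, IL1B, NFKBIE, TNFAIP3 and TNIP1, the last 3 being inhibitors that NF-κB itself induces. IL1B, an inducer of CXCL8, was at 283.5, 2105 and 265 TPM in Hey parental cells, PGCCs and daughter cells, and at 13.5, 9.23 and 0.305 TPM in SKOV3. In Hey the 3 states thus had the same order for IL1B as for CXCL8, whereas in SKOV3 daughter cells, where CXCL8 was at its SKOV3 maximum, IL1B was at its minimum. TNF, another inducer, was at 4.08, 6.84 and 3.43 TPM in Hey and at 31.5, 36.9 and 62.6 TPM in SKOV3. It was highest in the same library of each line as CXCL8, with no call against parental cells. Whether IL1B or TNF acted on CXCL8 in these cells was not tested, and these orders rest on 1 library per state. In SKOV3 PGCCs the called genes were NFKB2, BCL3 and TNIP1, and none of the 3 calls held with the GC and length trend removed. SKOV3 daughter cells had 4 of the 15 genes higher than parental cells, namely NFKB2, RELB, NFKBIA and TNIP1, and IL1A and IL1B lower, where 15.1% of the 14988 genes were higher and 6.34% lower.

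Of 12 genes for enzymes that cut or modify chemokines, 4 were higher and 0 lower in Hey PGCCs than in parental cells, where 7.67% of the 14988 genes were higher and 5.22% lower. They were the matrix metalloproteinases MMP1, MMP2 and MMP9, which process chemokines and the matrix that holds them, and QPCT, which can form the N-terminal pyroglutamate of CCL2. MMP1 was at 1.42, 98.1 and 0.951 TPM in Hey and at 344, 114 and 0.342 TPM in SKOV3. In SKOV3 PGCCs, 1 gene (QPCTL) was higher and 2 (MMP1 and MMP2) were lower, where the shares were 9.94% and 4.96%. These calls come from the comparison that carries the GC trend. QPCTL, at a difference of 1.11, has a GC content of 58.7%, MMP1 of 39.9% and MMP2 of 55.3%. ADAM10 and ADAM17, which release CXCL16 from the membrane, were between 19.7 and 122 TPM in all libraries. DPP4, a protease that trims CXCL10, was at 9.15, 8.53 and 27.7 TPM in SKOV3 and at or below 1.43 TPM in Hey. Of 7 factors that control decay of short-lived mRNAs, ZC3H12A alone was called in Hey PGCCs against parental cells, higher at 1.21, and 0 were called in SKOV3.

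Markers of other cell types were examined beside these values. None of 8 leukocyte markers reached 1 TPM in any library, their summed level was between 0.210 and 1.09 TPM, and CD3E, FCGR3B and S100A8 were listed at 0 in all 6. The summed level of 5 fibroblast markers was 0.262, 3.47 and 0.184 TPM in Hey parental cells, PGCCs and daughter cells and 12.5, 12.3 and 22.9 TPM in SKOV3, so it was highest in Hey where CXCL8 was highest and highest in SKOV3 where CCL2 was. LUM, at 1.55 TPM in Hey PGCCs, was the 1 fibroblast marker of 5 called in PGCCs against parental cells. Of the 14988 genes that averaged 1 TPM or more, 7.67% were called higher in Hey PGCCs. In SKOV3 daughter cells COL1A1 was at 16.3 TPM, against 2.35 TPM in parental cells, and was called higher. LUM was at 5.56 TPM against 8.84 TPM, and DCN, which was called lower, at 0.0292 TPM against 1.33 TPM. PDGFRA was at 0.945 TPM against 0.0074 TPM. THY1 was at 0.069 TPM and was listed at 0 in parental cells. In this comparison 15.1% of the 14988 genes were higher and 6.34% lower. The part of fibroblast-like RNA in these chemokine levels was not tested. Of 3 endothelial markers CDH5 was between 33.2 and 48.5 TPM in Hey. In SKOV3 CDH5 was listed at 0 in parental cells and was at 0.0347 TPM in PGCCs and 2.56 TPM in daughter cells. It was thus called higher than in parental cells in the library that held CCL2, as were 15.1% of the 14988 genes. Its part in the CCL2 value was not tested. PECAM1 and VWF were below 1 TPM in all libraries.

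As a check of the labelled cancer cells, the keratin genes KRT7, KRT8 and KRT18 were between 220 and 1052 TPM in all libraries and PAX8, a marker of ovarian carcinoma, was between 54.7 and 136 TPM. The other 3 ovarian carcinoma markers were lower: WT1 was between 0.530 and 4.10 TPM, MUC16 was at or below 0.0322 TPM in Hey and at 1.15, 1.58 and 0.00563 TPM in SKOV3, and MSLN was at 21.5, 23.3 and 0.386 TPM in Hey and 33.1, 46.1 and 1.85 TPM in SKOV3, lowest in the daughter cells of both lines. EPCAM, KRT19 and CDH1 were at or below 3.60 TPM in Hey. In SKOV3 PGCCs against parental cells, 4 of 6 epithelial markers were called higher, namely KRT7, KRT8, KRT19 and CDH1. So was 1 of 4 ovarian carcinoma markers, PAX8. In this comparison, which carries the GC trend, 9.94% of the 14988 genes that averaged 1 TPM or more were higher. KRT7, KRT8, KRT19 and PAX8 have GC contents between 57.1% and 59.6%, and that of CDH1 is lower. KRT18, with a GC content of 57.0%, had a difference of 0.93 and was not called.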

How the data were processed

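RNA-seq libraries of Hey and SKOV3 in 3 states (parental, PGCC and daughter) were analysed, 1 library per condition. The authors trimmed reads with fastp, quantified them on the human transcriptome (hg38) with salmon 0.14.1 and deposited TPM values per gene symbol, which were used as deposited. The annotation release and the step from transcripts to genes are not given in the sources used here. Depth per gene is unknown. Each of the 6 columns was matched to 1 sample by its label.

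Differences of log2(TPM + 1) were computed in 9 comparisons, and a gene was called at 2-fold. Because each group holds 1 library, no p-value was computed. The members and gene lists were chosen with earlier results of these data known. Named genes were the 10 members, the members' receptors, and genes of the lists with a TPM of at least 1 in either library that were called in PGCCs against parental cells. Some list values in daughter cells (NFKB2, RELB and NFKBIA), TNF, ADAM10, ADAM17, DPP4 and the markers named were added after their values were seen. For likeness, the 3 genes with the highest Pearson correlation over the 6 libraries were taken among those that averaged 5 TPM or more with a log2 range of at least 1.

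Alternatives were a pseudocount of 0.1, a mean TPM of at least 1, median-ratio scaling, quantile normalization, mitochondrial genes left out, 1.5-fold and 3-fold thresholds, and removal of a lowess trend (fraction 0.3, 2 passes) in GC content and transcript length (GENCODE 44, 89.9% of genes). The same alternatives for the gene lists were added after seeing the data. In a simulation, the Hey parental library was copied with small noise, and 200 genes not near 0 TPM were raised 4-fold. Of these, 200 of 200 were called, and 0 of the unchanged genes among 14988. The noise was far below 2-fold, so this checks the code and does not measure the spread between real libraries. Python 3.11.15 was used with numpy 2.4.6, pandas 2.3.3, scipy 1.17.1, statsmodels 0.14.6 and matplotlib 3.10.9. Promoter sequences are those of RefSeq on GRCh38.p14.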

Additional observations from a re-analysis of the deposited data

Results flagged for a closer look

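Some of the chemokine genes were called in opposite directions in Hey and SKOV3. These differences between the lines were not tested, since each condition has 1 library. In daughter cells against PGCCs, the difference of log2(TPM + 1) of CXCL8 was -6.10 in Hey and 1.88 in SKOV3, so that Hey minus SKOV3 was -7.99. For CCL20 the same comparison gave -3.49 and 2.14, which are -5.62 apart. CXCL2 gave -3.47 and 1.52, which are -4.99 apart. The SKOV3 comparison had a Spearman correlation of -0.45 with GC content. Over the alternative settings its differences went down to 1.095 for CXCL8, 1.453 for CCL20 and 1.364 for CXCL2.

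In daughter against parental cells, CXCL2 was lower in Hey, at -2.28, and higher in SKOV3, at 1.28, so that Hey minus SKOV3 was -3.55. CXCL8 gave -1.56 and 1.79, which are -3.35 apart. Both comparisons share the daughter libraries, so the flags for CXCL2 and CXCL8 are not independent of each other.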

How the results depend on the processing

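Of 423 alternative values for single members, 391 kept their sign and their side of 2-fold, 25 crossed 2-fold, 7 changed sign while under 2-fold, and 0 called values turned direction. Replicates could not be paired within a line because each condition has 1 library, and for the same reason no replicate could be left out. A fit of state with the cell line as a block, which would take the lines as replicates of each other, was not run. The number of members called moved by more than 1.5 times as follows. With a pseudocount of 0.1 it was 8 in place of 5 in Hey PGCCs against parental cells, all higher. In Hey daughter cells against PGCCs it was 9 in place of 5, with 1 higher and 8 lower. In Hey daughter against parental cells it was 5 in place of 3, with 2 higher and 3 lower. With the GC and length trend removed it was 2 in place of 0 in SKOV3 PGCCs against parental cells. At 1.5-fold it was 8 in place of 5 in Hey daughter cells against PGCCs, with 1 higher and 7 lower. It was also 8 in place of 5, all higher, in SKOV3 daughter cells against PGCCs and against parental cells. In Hey daughter against parental cells it was 6 in place of 3, with 2 higher and 4 lower. At 3-fold it was 3 in place of 5 in both SKOV3 comparisons of daughter cells and 1 in place of 3 in Hey daughter against parental cells. The lower pseudocount adds genes near 0, such as CXCL5 at 3.21 and CXCL10 at 2.73 in Hey PGCCs. Of 672 counts of the gene lists, 520 stayed within 1.5 times and 152 moved. TPM without counts limits what can be said of CXCL5, CXCL6 and CXCL10, and 1 library per condition limits every comparison.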

Other observations

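The genes with the pattern most like CXCL8 over the 6 libraries, among 8382 genes compared, were CCDC71L, with a Pearson correlation of log2(TPM + 1) of 0.998, CXCL1, with 0.987, and DCUN1D3, with 0.985. These correlations are a description over 6 libraries that share lines and states. CCDC71L was at 4.58, 12.4 and 3.33 TPM in Hey parental cells, PGCCs and daughter cells and at 5.12, 5.19 and 7.24 TPM in SKOV3. CCL2 was near 0 in all libraries but that of SKOV3 daughter cells, and 32 genes had a correlation with it above 0.99, as any gene high in that library alone would. The first of them was ALDH1A1, an aldehyde dehydrogenase gene, at 859 TPM in SKOV3 daughter cells and at or below 0.354 TPM in every other library. The next, with practically equal correlations, were RNU6-37P and RPL38P4, listed at 0 outside SKOV3 daughter cells. CXCL16, with 34 genes above 0.99, was most like AL133163.3, CDON and ZNF32, and CXCL10 most like TP53INP2, HOXA-AS2 and OPTN.

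Near the CXC genes on chromosome 4, 6 further genes were followed. In Hey PGCCs against parental cells, where 7.67% of the 14988 genes averaging 1 TPM or more were higher, 3 were higher and 0 lower, namely AREG and EREG, which encode ligands of the EGF receptor, and MTHFD2L, a gene of mitochondrial folate metabolism. AREG was at 0.429, 20.3 and 1.49 TPM in Hey and at 17.5, 16.2 and 6.52 TPM in SKOV3. In SKOV3 PGCCs 0 of the 6 were called, where 9.94% of the 14988 genes were higher and 4.96% lower.

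Of 12 genes of the interferon response, to which CXCL10 also belongs, 4 were higher and 0 lower in Hey PGCCs than in parental cells, namely IRF9, IFIT1, IFIT2 and ISG15. The shares of the 14988 genes averaging 1 TPM or more were 7.67% higher and 5.22% lower. In SKOV3 PGCCs, ISG15 was higher and OAS1 lower, where 9.94% and 4.96% of the 14988 genes were. This SKOV3 comparison carries the GC trend, with a Spearman correlation of 0.72. The GC content is 63.9% for ISG15 and 50.6% for OAS1. ISG15 was at 3.67, 14.8 and 3.44 TPM in Hey and at 4.19, 16.7 and 5.28 TPM in SKOV3. IFNB1, the interferon beta gene, was listed at 0 in all 6 libraries.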
